A study of Mus musculus with 8 samples.

Results

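The comparison described here is fine particulate matter (PM2.5) against filtered air (FA) in the livers of mice kept under a light/dark cycle (LD). It rests on the 2 libraries titled LD-PM2.5 and the 2 libraries titled LD-FA, 4 of the 8 libraries of the series. Genes were taken where the deposited table gave status OK in all libraries and at least 1 FPKM (a fragment count scaled for transcript length and library depth) in at least 2 of the 8 libraries. This kept 11316 of the 48432 genes listed.

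LD-PM2.5 mice were wild-type C57BL/6 animals that lived in a light/dark cycle and breathed PM2.5 for 30 weeks. LD-FA mice were wild-type C57BL/6 animals that lived in the same light/dark cycle and breathed filtered air for 30 weeks. The other 4 libraries, LL-PM2.5 and LL-FA, came from wild-type C57BL/6 mice held in constant light (LL) in PM2.5 or filtered air for 30 weeks. They share their estimate of spread with the LD groups and show whether a difference also stood in constant light. Total liver RNA was sequenced. No source used here states the mice's age or sex. Xist stood at 0 FPKM in both light/dark groups. The Y-linked genes Ddx3y, Eif2s3y, Kdm5d and Uty passed the filter, as in male tissue. Also not given are the hour of collection, the particle dose, and whether the 2 libraries of a group came from separate animals. The p-values therefore measure the spread between libraries, which may be technical. By its title the series asks how air pollution disturbs daily rhythm, and this comparison asks it without a disturbed light schedule.

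PM2.5 is airborne matter fine enough to reach the deep lung, and its inhalation is known to affect organs beyond the lung. The liver clock is a feedback loop: CLOCK and BMAL1 (gene Arntl) bind E-boxes and switch on the Per and Cry genes, whose proteins then repress them. DBP and TEF carry the rhythm onward through D-boxes, where NFIL3 opposes them, and REV-ERB proteins (Nr1d1, Nr1d2) repress Arntl and Npas2. Feeding, temperature, glucocorticoids and cytokines all reach the hepatocyte clock and the metabolic genes it drives.

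No gene passed the test across all genes. The edgeR quasi-likelihood test, fitted over the 8 libraries with Benjamini-Hochberg adjustment, called 0 of 11316 genes (0.0%) at an adjusted p under 0.05, and the smallest adjusted p was 0.324. At an unadjusted p under 0.05 stood 1240 genes (11.0% of those tested), 767 with a positive log2 fold change (6.78%) and 473 with a negative one (4.18%). The groups did not overlap in 5591 genes (49.4%): both LD-PM2.5 libraries lay above both LD-FA libraries in 2784 genes (24.6%) and below both in 2807 (24.8%). Such counts of genes or members apart are on counts scaled for depth by TMM, the trimmed mean of ratios. With no filter on FPKM, edgeR called 647 of 23030 genes, 513 of them among the 11316, and its prior on the spread then carried 76.3 degrees of freedom, against 3.46 with the filter. DESeq2, another count test, called 109 genes higher (0.963%) and 41 lower (0.362%) at an adjusted p under 0.05. Every gene and list below is therefore given by its values, and p under 0.05 means edgeR's unadjusted p unless it is named otherwise. Any list count at that p is to be set against 11.0% of all genes, 6.78% upward and 4.18% downward. Log2 fold changes are LD-PM2.5 over LD-FA, with the standard error (SE) derived from the test and n = 2 libraries per group.

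Some measured features of the libraries touch many results. Depth was about 28026000 and 22215000 fragments in LD-PM2.5 and 26851000 and 31819000 in LD-FA. The 2 LD-PM2.5 libraries often stood apart from each other. With replicate 1 of LD-PM2.5 left out, edgeR called 36 genes, 24 higher and 12 lower, and 1573 genes reached an unadjusted p under 0.05. With replicate 2 of LD-PM2.5 left out it called 0, and 544 genes reached that p. Leaving out replicate 1 of LD-FA gave 0 called and 395 at that p, and leaving out replicate 2 of LD-FA gave 0 and 1036. Longer transcripts stood higher in LD-PM2.5, a relation described with the chromatin genes. Of the 132 genes given with values, 112 reached p under 0.05, and 20 of these no longer did with that relation removed. The same 112 include 36 whose log2 fold change moved by over 1.5 times without LD-PM2.5 replicate 2, 14 without LD-PM2.5 replicate 1, 8 without LD-FA replicate 1 and 4 without LD-FA replicate 2. RNA of pancreas and skeletal muscle was present in LD-FA replicate 1, with the values given near the end. In bulk RNA, fewer cells of a type and less RNA per cell cannot be told apart.

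Some of the genes of smallest p that reached 5 FPKM in a group are given here, and others, among them Pim1, Pim3, Dbp and Mir6236, further on with related genes. Mtss1, whose protein bends membranes and binds actin, had 35.4 and 41.8 FPKM in LD-PM2.5, against 13.1 and 14.4 FPKM in LD-FA. Its log2 fold change was 1.46 ± 0.16 (edgeR adjusted p = 0.324), and the groups did not overlap. Lpin2, an enzyme that makes diacylglycerol from phosphatidate, had 52.4 and 48.6 FPKM in LD-PM2.5, against 19.7 and 25.8 FPKM in LD-FA (log2 fold change 1.08 ± 0.17). Herpud1, a membrane protein of the endoplasmic reticulum that helps clear misfolded proteins, had 385 and 387 FPKM in LD-PM2.5, against 218 and 207 FPKM in LD-FA. Its 2 libraries per group were nearly equal, and its log2 fold change was 0.86 ± 0.15 (edgeR adjusted p = 0.382). Atg14, a subunit of the lipid kinase complex that starts autophagosomes, had 5.71 and 6.25 FPKM in LD-PM2.5, against 3.27 and 3.40 FPKM in LD-FA (log2 fold change 0.82 ± 0.15). Il15ra, the alpha chain of the interleukin-15 receptor, had 7.91 and 8.61 FPKM in LD-PM2.5, against 3.15 and 3.77 FPKM in LD-FA. Akap13, an anchoring protein of protein kinase A, had 5.68 and 7.22 FPKM in LD-PM2.5, against 2.10 and 2.94 FPKM in LD-FA. In all of these both LD-PM2.5 libraries lay above both LD-FA libraries. DESeq2 gave Mtss1 an adjusted p of 4.82e-11, Lpin2 one of 2.72e-05 and Herpud1 one of 0.00014.

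Among genes that stood lower in LD-PM2.5, Fam89a had 4.95 and 4.51 FPKM in LD-PM2.5, against 10.4 and 9.92 FPKM in LD-FA (log2 fold change -1.12 ± 0.17, edgeR adjusted p = 0.382). Chka, choline kinase alpha, the first enzyme of phosphatidylcholine synthesis from choline, had 18.6 and 13.6 FPKM in LD-PM2.5, against 31.7 and 30.6 FPKM in LD-FA. Its groups did not overlap, with LD-FA about level and LD-PM2.5 replicate 2 lowest. The cytoskeletal genes Actg1, a cytoplasmic actin, and Tuba4a, an alpha tubulin, were lower as well. Actg1 had 9.05 and 9.62 FPKM in LD-PM2.5, against 14.99 and 14.7 FPKM in LD-FA. Tuba4a had 67.9 and 50.4 FPKM in LD-PM2.5, against 89.1 and 86.7 FPKM in LD-FA. Tm4sf1, a membrane protein of endothelial and epithelial cells, had 5.31 and 4.34 FPKM in LD-PM2.5, against 7.91 and 6.29 FPKM in LD-FA. Eepd1 had 4.44 and 3.27 FPKM in LD-PM2.5, against 7.71 and 7.40 FPKM in LD-FA, and its log2 fold change was -0.97 ± 0.17.

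**Figure D1:**
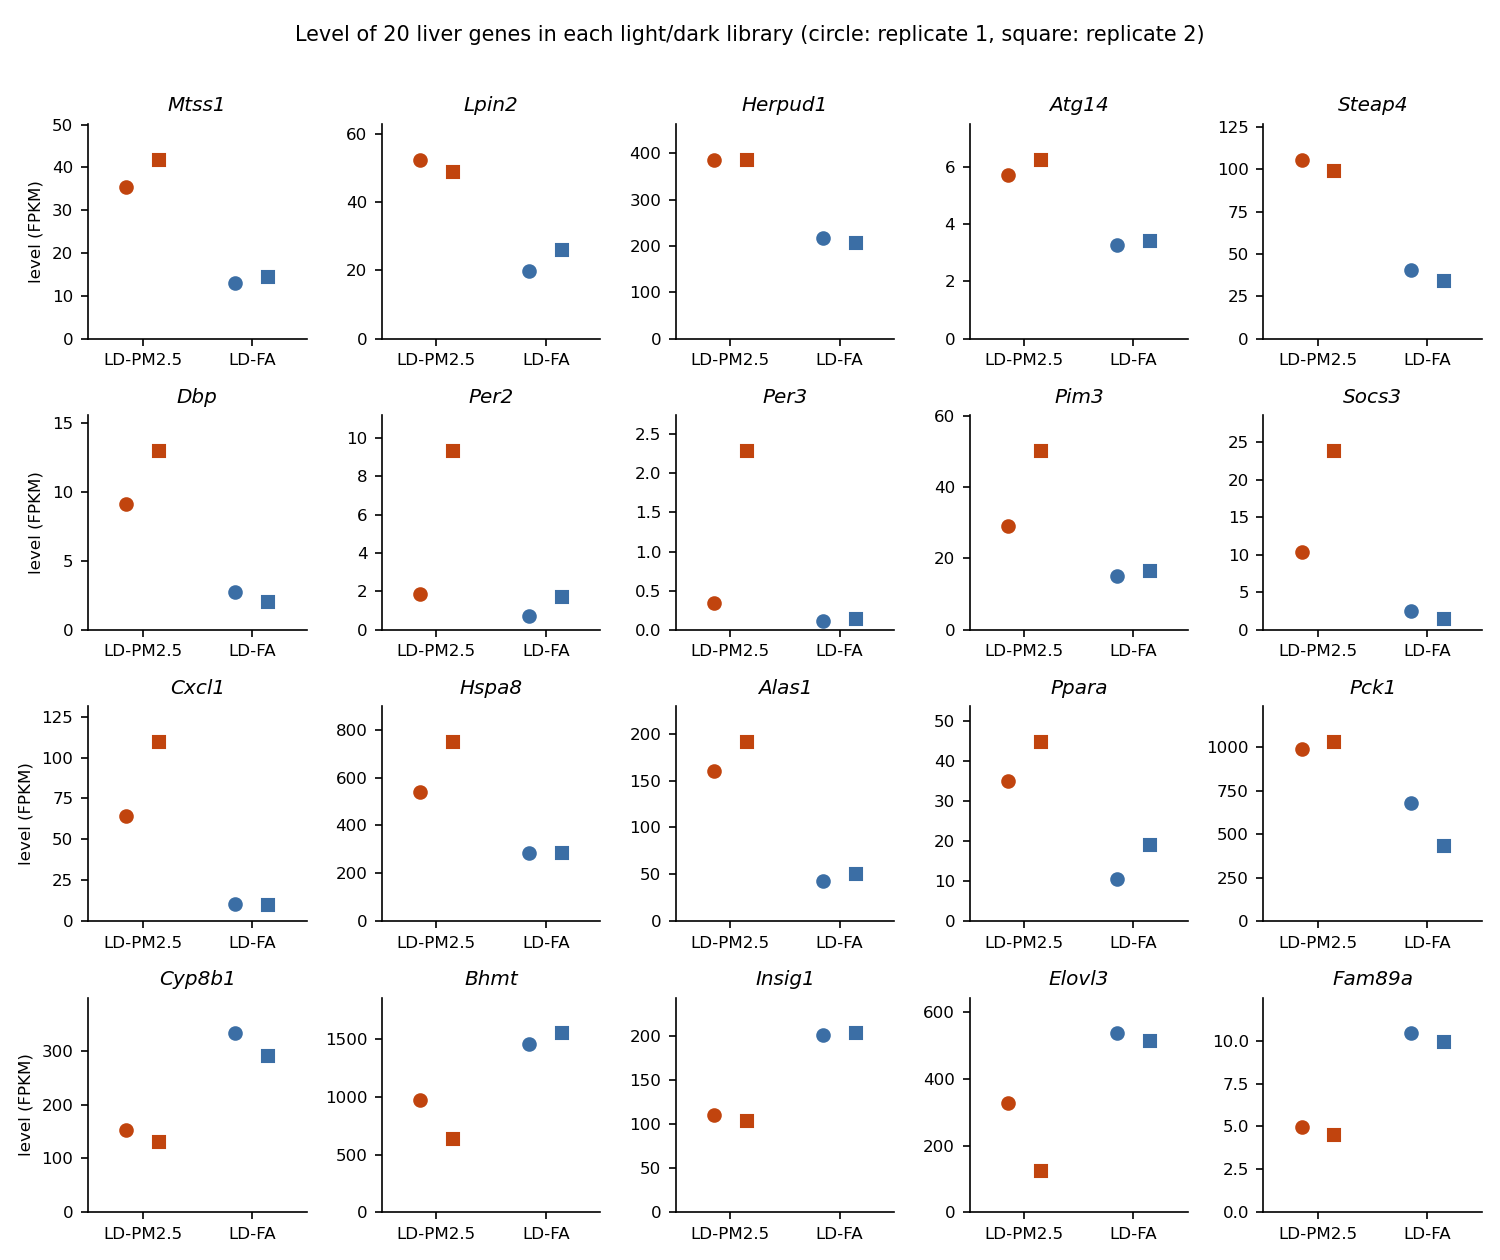
Level in FPKM (vertical axes, each from 0) of 20 genes in the 2 LD-PM2.5 libraries (left in each panel) and the 2 LD-FA libraries (right), circles for replicate 1 and squares for replicate 2. Herpud1, Atg14, Steap4, Pck1 and Cyp8b1 show close LD-PM2.5 replicates, while in Per2, Per3, Socs3 and Elovl3 the LD-PM2.5 replicates lie wide apart.

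The clock repressors and E-box driven outputs stood higher in LD-PM2.5 as a group. All 12 tested members of 13 listed had a positive log2 fold change (48.4% of all tested genes did), 7 stood apart upward (24.6% of all tested genes did) and 7 reached p under 0.05 upward (6.78% did). Their median log2 fold change was 1.27, against -0.01 over all tested genes. Dbp, the D-box activator, had 9.12 and 12.99 FPKM in LD-PM2.5, against 2.77 and 2.05 FPKM in LD-FA (log2 fold change 2.21 ± 0.39, edgeR adjusted p = 0.382). Tef, its relative, had 13.4 and 34.6 FPKM in LD-PM2.5, against 7.09 and 8.82 FPKM in LD-FA. Nr1d2, which encodes REV-ERB beta, had 14.5 and 11.8 FPKM in LD-PM2.5, against 9.76 and 6.66 FPKM in LD-FA. Within LD-PM2.5 the 2 libraries differed widely in the Period genes. Per2 had 1.85 and 9.33 FPKM in LD-PM2.5, against 0.699 and 1.70 FPKM in LD-FA. Per3 had 0.344 and 2.29 FPKM in LD-PM2.5, against 0.111 and 0.138 FPKM in LD-FA. Per1 had 1.70 and 5.99 FPKM in LD-PM2.5, against 0.966 and 1.44 FPKM in LD-FA. In all 3 Period genes both LD-PM2.5 libraries lay above both LD-FA libraries, but LD-PM2.5 replicate 2 stood far above replicate 1. Without LD-PM2.5 replicate 2 the log2 fold change of Per2 was 0.66, against 2.21 with it, and the median of the 12 members was 0.62. Cry1, a repressor that peaks later than the Period genes, had 2.85 and 15.1 FPKM in LD-PM2.5 and 5.36 and 3.97 FPKM in LD-FA, with overlapping groups. Nr1d1, which encodes REV-ERB alpha, went the other way within LD-PM2.5, at 52.5 and 5.55 FPKM in LD-PM2.5 and 22 and 20.1 FPKM in LD-FA. Its LD-PM2.5 libraries lay on either side of both LD-FA libraries, and its log2 fold change of 0.49 was -0.23 on log2(FPKM + 1) and -1.93 without LD-PM2.5 replicate 1. Cry1 stood at 0.95, and at -0.81 without LD-PM2.5 replicate 2.

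The promoters of the same genes show where these motifs lie. An E-box (CACGTG, read on both strands) was found in the 250 bases before the start of 4 of the 10 tested members that RefSeq's promoter table for GRCm38.p6 holds (40%), against 6.86% of its 27025 genes. A D-box (TTANNTAA, both strands) was found in 2 of the 10 (20%), against 6.30% of all genes. A match only says that the letters are there. The windows below are from Per1, Per3 and Tef, written 5′ to 3′ along the gene's strand with the motif in capitals. The groups did not overlap in these genes. Nor did they in Ciart, which held 3 E-boxes and is not shown.
Per1, chr11:69098743-69098828, plus strand: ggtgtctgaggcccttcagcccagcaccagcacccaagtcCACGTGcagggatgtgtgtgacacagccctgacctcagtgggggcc
Tef, chr15:81802506-81802591, plus strand: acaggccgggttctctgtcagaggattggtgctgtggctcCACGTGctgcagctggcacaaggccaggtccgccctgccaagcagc
Per3, chr4:151044823-151044910, minus strand: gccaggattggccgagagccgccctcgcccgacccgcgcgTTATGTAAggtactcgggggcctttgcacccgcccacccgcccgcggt
Tef, chr15:81802459-81802546, plus strand: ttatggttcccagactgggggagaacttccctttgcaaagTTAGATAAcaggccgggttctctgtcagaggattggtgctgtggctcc
Tef held both motifs within the same promoter. Per3, whose level differed most between the groups among the Period genes, held 2 D-boxes and no E-box of these letters. The first D-box is shown.

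The genes of the opposite phase pointed both ways. Of 6 tested members, Arntl and Npas2 stood lower and Nfil3 higher, each at an unadjusted p under 0.05. Arntl had 4.40 and 3.995 FPKM in LD-PM2.5, against 6.75 and 6.35 FPKM in LD-FA (log2 fold change -0.65 ± 0.14). Npas2, a relative of CLOCK, had 0.413 and 0.0276 FPKM in LD-PM2.5, against 1.17 and 1.41 FPKM in LD-FA. Its levels were lowest in LD-PM2.5 replicate 2, and neither gene overlapped between groups. Nfil3, the D-box repressor, had 20.9 and 26.7 FPKM in LD-PM2.5, against 13.7 and 16.8 FPKM in LD-FA. The list's median of 0.33 was -0.04 with the relation to transcript length removed and -0.12 without LD-PM2.5 replicate 2. Among 11 tested clock modulators 5 were positive and 2 reached p under 0.05. Usp2, a deubiquitinating enzyme with a strong daily rhythm in liver, had 1.34 and 16.4 FPKM in LD-PM2.5, against 1.01 and 0.803 FPKM in LD-FA. That gap was 1 library: without LD-PM2.5 replicate 2 its log2 fold change was 0.46, against 3.13 with it. Nampt, the enzyme that recycles nicotinamide to NAD+, had 11.5 and 21.6 FPKM in LD-PM2.5, against 9.35 and 7.93 FPKM in LD-FA.

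Rhythmic liver outputs were split. Of 17 tested members, 7 reached p under 0.05 upward (6.78% of all genes did) and 3 downward (4.18% did), and the median was 0.66. It was 0.15 without LD-PM2.5 replicate 2. Rgs16, a regulator of G protein signalling that follows feeding time in liver, had 1.65 and 2.17 FPKM in LD-PM2.5, against 0.350 and 0.293 FPKM in LD-FA (log2 fold change 2.59 ± 0.37, edgeR adjusted p = 0.382). Wee1, a kinase that delays mitosis and a known clock output, had 0.888 and 6.79 FPKM in LD-PM2.5, against 0.637 and 0.640 FPKM in LD-FA, with only LD-PM2.5 replicate 2 set well apart. Por, the electron donor of the P450 enzymes, had 67.1 and 189 FPKM in LD-PM2.5, against 58.4 and 43.6 FPKM in LD-FA. Elovl3, an elongase of very long fatty acids under clock control, had 329 and 123 FPKM in LD-PM2.5, against 537 and 513 FPKM in LD-FA. Both LD-PM2.5 libraries lay below LD-FA, replicate 2 far below. Tubb2a, a beta tubulin that cycles with body temperature, had 55.7 and 39.6 FPKM in LD-PM2.5, against 74.7 and 107 FPKM in LD-FA (log2 fold change -0.86 ± 0.26).

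**Figure D2:**
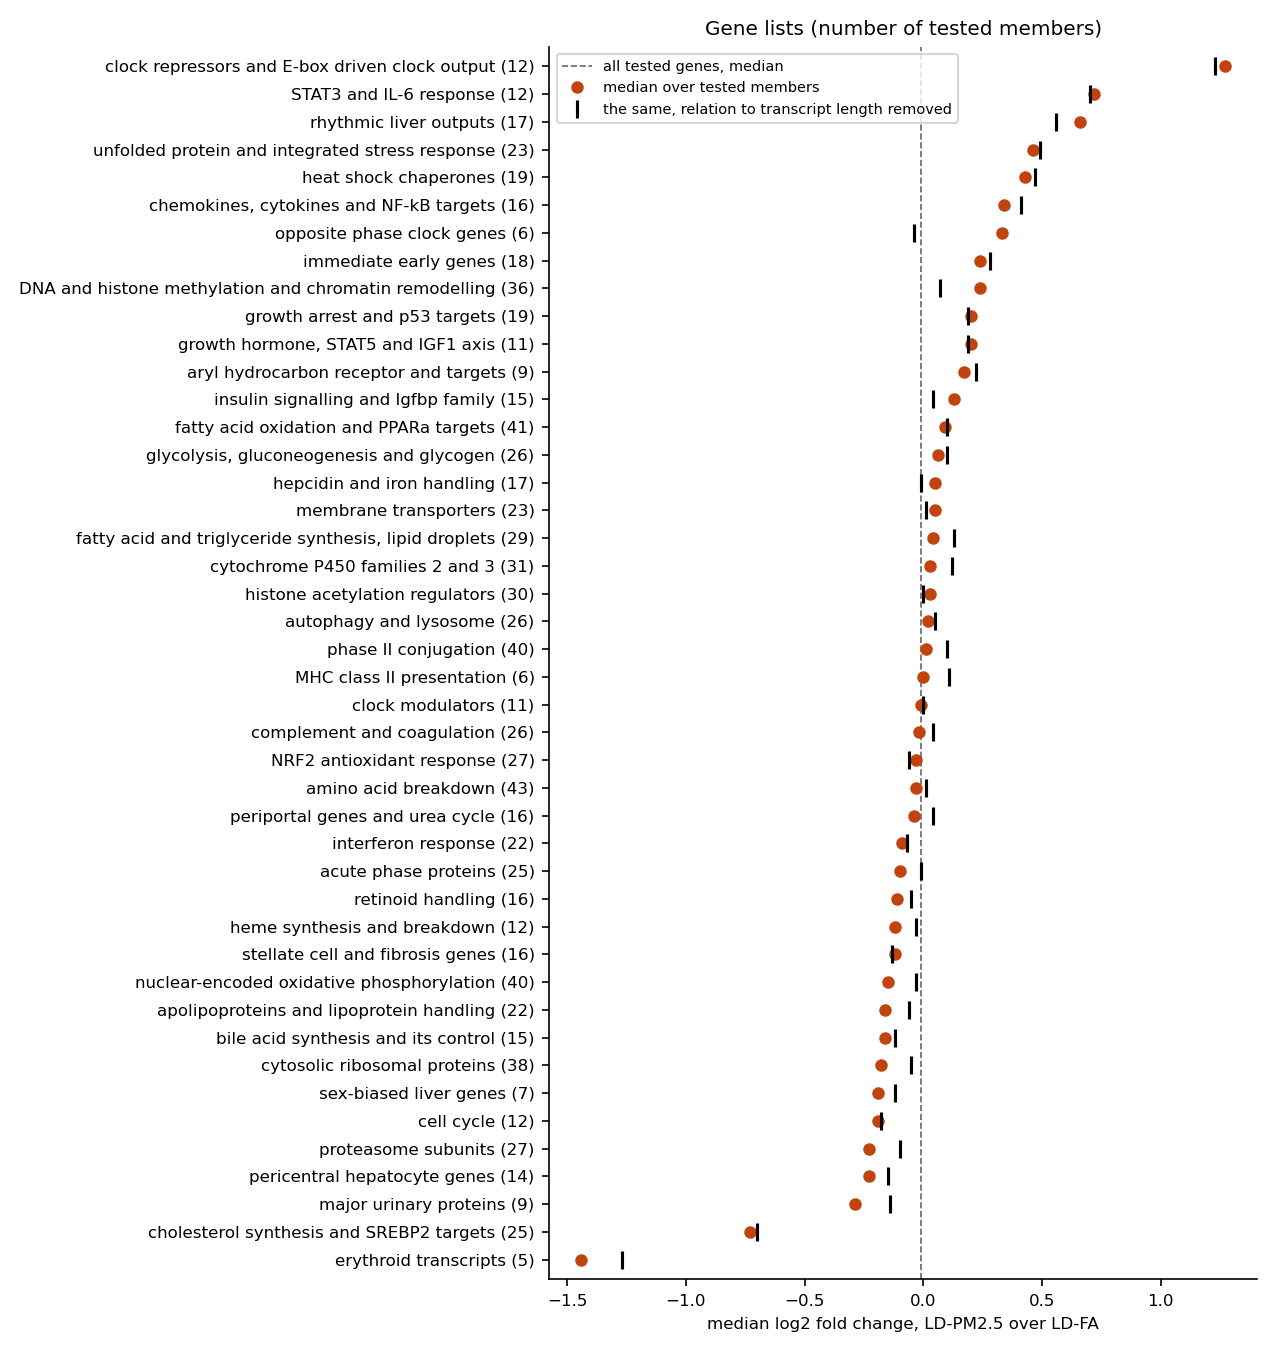
Median log2 fold change, LD-PM2.5 over LD-FA (horizontal axis), of the tested members of each gene list (rows, member number in brackets), as dots, with ticks for the same median after the relation to transcript length was removed and a dashed line for all tested genes at -0.01. The clock repressor list stands highest at 1.27 and the erythroid list lowest at -1.44. The lists of ribosomal proteins, proteasome and oxidative phosphorylation move towards 0 with the length relation removed.

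Transcripts of interleukin-6 type signalling also stood higher as a list. Such signalling works through receptors that share gp130 (gene Il6st), the factor STAT3 and the feedback inhibitor SOCS3. All 12 tested members of 13 had a positive log2 fold change, 9 stood apart upward (24.6% of all genes did) and 8 reached p under 0.05 upward (6.78% did), with a median of 0.72. Of these 12, 6 reached it with the relation to transcript length removed. Receptors came first. Il6st had 35.4 and 31.9 FPKM in LD-PM2.5, against 17.1 and 20.7 FPKM in LD-FA (log2 fold change 0.71 ± 0.18). Il6ra, the interleukin-6 receptor alpha chain, had 8.004 and 12.8 FPKM in LD-PM2.5, against 4.603 and 4.94 FPKM in LD-FA. Lifr, the receptor of leukemia inhibitory factor, had 89.9 and 82.6 FPKM in LD-PM2.5, against 81.9 and 54.8 FPKM in LD-FA. All 3 receptors stood higher in both LD-PM2.5 libraries, Lifr by the smallest margin. With the relation to length removed, the log2 fold change of Il6st was 0.39, against 0.71 before, that of Il6ra 0.66, against 0.98, and that of Lifr 0.0048, against 0.38. Il6ra and Lifr then no longer reached p under 0.05. Stat3 itself differed little, at 24.3 and 23.9 FPKM in LD-PM2.5 and 21.9 and 19.5 FPKM in LD-FA, with a log2 fold change of 0.20, and of -0.0043 with that relation removed.

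Pim1, Pim3 and Socs3 are known to be induced by STAT3. Pim1, a survival kinase, had 10.8 and 12.9 FPKM in LD-PM2.5, against 5.76 and 5.40 FPKM in LD-FA (log2 fold change 1.09 ± 0.16, edgeR adjusted p = 0.382). Pim3, its relative, had 28.97 and 50.1 FPKM in LD-PM2.5, against 15.01 and 16.5 FPKM in LD-FA (log2 fold change 1.35 ± 0.20). Socs3 had 10.4 and 23.9 FPKM in LD-PM2.5, against 2.56 and 1.48 FPKM in LD-FA. None of these groups overlapped, and LD-PM2.5 replicate 2 was highest in each. Cebpb, a transcription factor of the acute phase response, overlapped, at 74.9 and 226 FPKM in LD-PM2.5 and 88.97 and 107 FPKM in LD-FA. In constant light the log2 fold change was -0.11 for Pim1, 0.09 for Pim3, -0.16 for Il6st and -1.32 for Socs3. The difference between light regimes was 1.20 ± 0.22 (SE) for Pim1, with an unadjusted p of 0.000821 and an edgeR adjusted p of 0.843. A STAT site (TTCNNNGAA, both strands) stood in 1 of 11 members in RefSeq's promoter table (9.09%), against 8.13% of all genes. That member was Socs3, and its window is printed because its level differed most, with the site in capitals.
Socs3, chr11:117969472-117969560, minus strand: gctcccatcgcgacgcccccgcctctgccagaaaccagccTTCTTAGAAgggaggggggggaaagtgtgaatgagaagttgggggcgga

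Genes downstream of NF-kB, the main switch of inflammatory genes, stood higher in part. Of 16 tested members 11 were positive, 8 stood apart upward (24.6% of all genes did) and 4 reached p under 0.05 upward (6.78% did), with a median of 0.34. Cxcl1, a chemokine that draws neutrophils, had 64.1 and 109 FPKM in LD-PM2.5, against 10.6 and 10.1 FPKM in LD-FA (log2 fold change 3.04 ± 0.63). Relb and Nfkb2, the subunits of the alternative NF-kB pathway, were both higher. Relb had 1.66 and 2.997 FPKM in LD-PM2.5, against 0.977 and 0.760 FPKM in LD-FA. Nfkb2 had 3.42 and 4.71 FPKM in LD-PM2.5, against 2.29 and 2.04 FPKM in LD-FA. In both, LD-PM2.5 replicate 2 was highest. Icam1, an adhesion molecule for leukocytes, had 7.63 and 14.5 FPKM in LD-PM2.5, against 5.62 and 4.89 FPKM in LD-FA. Nfkbia, the inhibitor that NF-kB itself induces, did not follow, at 21.5 and 25.5 FPKM in LD-PM2.5 and 22.4 and 27.5 FPKM in LD-FA. Its groups overlapped. Tnf, the cytokine that starts this response, stood under the filter at 0.0411 and 0.0671 FPKM in LD-PM2.5 and 0.0592 and 0.0894 FPKM in LD-FA. Neutrophil transcripts stood beside this: of 9 markers only S100a8 and S100a9 were tested, and their summed level over all 9 was 7.08 and 14.1 FPKM in LD-PM2.5, against 6.62 and 4.14 FPKM in LD-FA. Camp was at 0 in all 4 libraries. The part of neutrophils in these differences was not tested.

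The acute phase genes that STAT3 and NF-kB drive in an injured liver did not stand higher as a group. Of 25 tested members 9 were positive and 1 reached p under 0.05, with a median of -0.10, which ranged from -0.30 to 0.13 when 1 light/dark library was left out. The exception was Steap4, a metalloreductase of hepatocyte membranes. It had 106 and 98.9 FPKM in LD-PM2.5, against 40.4 and 34.1 FPKM in LD-FA (log2 fold change 1.39 ± 0.27, edgeR adjusted p = 0.399), and its groups lay wide apart. Hp, haptoglobin, which binds free hemoglobin, had 2986 and 3281 FPKM in LD-PM2.5 and 3825 and 2899 FPKM in LD-FA. Hpx, hemopexin, which binds heme, had 3204 and 2491 FPKM in LD-PM2.5 and 3917 and 2381 FPKM in LD-FA. Both overlapped. Complement and coagulation proteins centred on 0 too, with 12 of 26 positive, 1 at p under 0.05 and a median of -0.02. That 1 was F5, coagulation factor V, at 71.4 and 68.4 FPKM in LD-PM2.5 and 47.1 and 46.6 FPKM in LD-FA. Its log2 fold change of 0.55 was 0.29 with the relation to length removed, and no longer at p under 0.05. Interferon response genes had a median of -0.09 with 8 of 22 positive. At p under 0.05 were 2 upward (6.78% of all genes were) and 2 downward (4.18% were). Irf1, a factor that both interferon and STAT3 induce, had 19.5 and 27.4 FPKM in LD-PM2.5, against 11.2 and 12.4 FPKM in LD-FA. Rsad2 and Oasl1, antiviral effectors, stood lower at log2 fold changes of -0.55 and -0.59. Oasl1 no longer reached p under 0.05 with the relation to length removed. Its log2 fold change moved by over 1.5 times without LD-FA replicate 2. The 6 tested genes of antigen presentation on MHC class II lay between -0.04 and 0.12, and none reached p under 0.05.

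Immediate early genes, which respond to growth factors and stress within the first hour, pointed both ways. Of 18 tested members 11 were positive. At p under 0.05 were 4 upward (6.78% of all genes were) and 2 downward (4.18% were). Junb, an AP-1 subunit, had 37.8 and 82.1 FPKM in LD-PM2.5, against 28.9 and 17.1 FPKM in LD-FA. Fosl2, another, had 2.75 and 3.59 FPKM in LD-PM2.5, against 1.92 and 1.45 FPKM in LD-FA. Maff, a small partner of bZIP factors, had 2.35 and 4.57 FPKM in LD-PM2.5, against 1.55 and 0.875 FPKM in LD-FA. In these 3 factors the groups did not overlap. Dusp1, the phosphatase that switches off stress kinases and responds to glucocorticoids, had 8.27 and 13.5 FPKM in LD-PM2.5, against 41.3 and 19.5 FPKM in LD-FA (log2 fold change -1.45 ± 0.37). Nr4a1, an orphan nuclear receptor, had 0.534 and 0.636 FPKM in LD-PM2.5, against 4.58 and 1.01 FPKM in LD-FA. LD-FA replicate 1 was highest in both, and without it the log2 fold change of Dusp1 was -0.86 and that of Nr4a1 -0.76, against -2.24 with it.

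Chaperones stood higher, but the cytosolic and the endoplasmic reticulum branch differed in which library led. The heat shock list is driven by HSF1, which follows temperature and misfolded proteins and has a daily rhythm in liver. Of its 19 tested members 16 were positive and 13 stood apart upward (24.6% of all genes did), with a median of 0.43. At p under 0.05 were 9 upward (6.78% of all genes were) and 1 downward (4.18% were). Hspa8, the constitutive HSP70, had 539 and 748 FPKM in LD-PM2.5, against 284 and 286 FPKM in LD-FA (log2 fold change 1.14 ± 0.33). Hspa4l, a nucleotide exchange factor of the HSP110 kind, had 10.6 and 15.5 FPKM in LD-PM2.5, against 4.70 and 5.25 FPKM in LD-FA. Both HSP70 system genes lay clear of LD-FA. Stip1, which hands clients from HSP70 to HSP90, had 52.8 and 65.3 FPKM in LD-PM2.5, against 35.1 and 37.2 FPKM in LD-FA. Hsp90ab1, the constitutive HSP90, had 432 and 571 FPKM in LD-PM2.5, against 316 and 308 FPKM in LD-FA. LD-PM2.5 replicate 2 was the highest library in all 4. In Hspb1, a small heat shock protein, it stood far out, at 23.1 and 119 FPKM in LD-PM2.5 and 18.4 and 16.3 FPKM in LD-FA. The inducible HSP70 genes did not follow. Hspa1a, the 1 member lower at p under 0.05, had 0.808 and 1.90 FPKM in LD-PM2.5, against 3.17 and 2.16 FPKM in LD-FA. Hspa1b had 23.03 and 36.3 FPKM in LD-PM2.5 and 25.8 and 20.5 FPKM in LD-FA, with overlapping groups. They are near-identical copies and the split of fragments between them is uncertain.

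The heat shock element (GAANNTTC, both strands) stood in 8 of the 15 chaperone genes in RefSeq's table (53.3%), against 7.73% of all genes. Hspb1, Hspa1a and Dnaja1 are shown because Hspb1 and Dnaja1 stood higher and Hspa1a lower, with the element in capitals. Hspb1 held 2 matches, and the second lies in lower case in the window shown.
Hspb1, chr5:135887762-135887849, plus strand: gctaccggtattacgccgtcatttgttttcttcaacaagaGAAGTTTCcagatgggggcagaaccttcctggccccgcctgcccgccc
Hspa1a, chr17:34972213-34972300, minus strand: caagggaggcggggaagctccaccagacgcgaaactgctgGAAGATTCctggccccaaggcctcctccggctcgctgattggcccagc
Dnaja1, chr4:40722304-40722391, plus strand: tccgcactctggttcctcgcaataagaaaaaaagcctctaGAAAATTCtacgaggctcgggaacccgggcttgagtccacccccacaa
Dnaja1, an HSP70 partner, had 48.3 and 50.01 FPKM in LD-PM2.5, against 35.5 and 26.8 FPKM in LD-FA. Its log2 fold change of 0.58 was 0.41 with the relation to length removed, and no longer at p under 0.05. The 3 genes thus share these letters at unlike differences in level.

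In the unfolded protein and integrated stress response, 19 of 23 tested members were positive, 10 stood apart upward (24.6% of all genes did) and 6 reached p under 0.05 with a positive (6.78% did) and 1 with a negative log2 fold change (4.18% did), with a median of 0.46. After the relation to length was removed, 4 reached it upward and 0 downward. Herpud1, described above, had the smallest p. Atf6, a sensor of unfolded proteins, had 16.8 and 13.8 FPKM in LD-PM2.5, against 11.6 and 9.66 FPKM in LD-FA. Xbp1, the factor spliced by IRE1, had 173 and 138 FPKM in LD-PM2.5, against 111 and 95.7 FPKM in LD-FA. Dnajc3, a chaperone that restrains the kinase PERK, had 100.4 and 68.3 FPKM in LD-PM2.5, against 64.1 and 49.6 FPKM in LD-FA. In these 3, LD-PM2.5 replicate 1 was highest and the groups did not overlap. With the relation to length removed, the log2 fold change of Atf6 was 0.20, against 0.46 before, and that of Dnajc3 0.33, against 0.48, and neither reached p under 0.05. Hspa5 (BiP), the main chaperone of the lumen, had 889.9 and 468 FPKM in LD-PM2.5 and 575 and 349 FPKM in LD-FA. The groups of Hspa5 overlapped, and replicate 1 was the higher library of either group. Leaving out LD-PM2.5 replicate 1 gave this list a median of 0.10, and leaving out replicate 2 a median of 0.68. For the heat shock list the same medians were 0.64 and 0.27. Atf4, the effector of the integrated stress response, was the 1 member lower at p under 0.05, with 52.1 and 40.3 FPKM in LD-PM2.5, against 72.2 and 55.3 FPKM in LD-FA.

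Genes known to respond to pollutants directly gave few contrasts. Polycyclic hydrocarbons on particles activate the aryl hydrocarbon receptor, whose hallmark target is Cyp1a1, and electrophiles activate NRF2. Cyp1a1 stood under the filter at 0.155 and 0.276 FPKM in LD-PM2.5, against 0.407 and 0.271 FPKM in LD-FA. Cyp1a2 had 284 and 356 FPKM in LD-PM2.5 and 388 and 362 FPKM in LD-FA. Of 9 tested members of the receptor's list 7 were positive and 1 reached p under 0.05, the same share as over all tested genes (11.0%), with a median of 0.17. Leaving out LD-PM2.5 replicate 1 moved that median to 0.35, and leaving out replicate 2 to 0.01. That 1 was Arnt, the receptor's DNA-binding partner, which had 7.70 and 11.1 FPKM in LD-PM2.5, against 5.19 and 6.32 FPKM in LD-FA. In the NRF2 list 11 of 27 members were positive and 0 reached p under 0.05 (11.0% of all tested genes did), with a median of -0.03 and a range from -0.36 to 0.53. Nqo1 is a quinone reductase that the aryl hydrocarbon receptor and NRF2 both induce. It had 3.51 and 5.50 FPKM in LD-PM2.5 and 3.78 and 3.996 FPKM in LD-FA, and its groups overlapped. P450 families 2 and 3 had a median of 0.03 over 31 members, and the conjugating enzymes of phase II had a median of 0.01 over 40. Gstm7 and Gstm2, glutathione transferases, reached p under 0.05, at log2 fold changes of -0.52 and -0.67. They were 2 of 40, against 11.0% of all tested genes, and neither reached it with the relation to length removed.

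Genes of cholesterol synthesis stood lower in LD-PM2.5. SREBP2 drives these enzymes together when sterols are scarce. Of 25 tested members 2 were positive, 18 stood apart downward (24.8% of all genes did) and 8 reached p under 0.05 downward (4.18% did), with a median of -0.73. Insig1, which holds SREBP back and is itself a target, had 110.1 and 103 FPKM in LD-PM2.5, against 201 and 203 FPKM in LD-FA (log2 fold change -0.98 ± 0.33). Its 2 LD-PM2.5 libraries were level and both below LD-FA. In many of the enzymes LD-PM2.5 replicate 2 was far lower than replicate 1. Hmgcs1, which feeds the pathway, had 206 and 26.2 FPKM in LD-PM2.5, against 249.7 and 280.3 FPKM in LD-FA. Msmo1, a later methyl oxidase, had 182 and 38.9 FPKM in LD-PM2.5, against 242 and 225 FPKM in LD-FA. Without LD-PM2.5 replicate 2 the median of the list was -0.27. The sterol element (TCACNCCAC, both strands) stood in 1 of the 17 members in RefSeq's table (5.88%), against 1.22% of all genes. It is Hmgcs1, shown with the element in capitals.
Hmgcs1, chr13:119690174-119690262, plus strand: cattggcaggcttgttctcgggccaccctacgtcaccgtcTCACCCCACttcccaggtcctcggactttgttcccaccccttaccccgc

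Downstream of cholesterol, 1 enzyme of bile acid synthesis stood lower at p under 0.05. Cyp8b1, the sterol 12-alpha-hydroxylase that decides between cholic acid and muricholic acid, had 152 and 131 FPKM in LD-PM2.5, against 332 and 289.7 FPKM in LD-FA (log2 fold change -1.13 ± 0.24, edgeR adjusted p = 0.416), with level replicates. It was also lower with PM2.5 in constant light, at -1.02. Hsd3b7, an early enzyme of the same route, had 241 and 86.96 FPKM in LD-PM2.5, against 330.1 and 322 FPKM in LD-FA, with replicate 2 far lower. Of 15 tested genes of bile acid synthesis 4 were positive and 1 reached p under 0.05, with a median of -0.16. Abcg5, a sterol exporter at the bile canaliculus, had 17.8 and 29.7 FPKM in LD-PM2.5, against 13.6 and 14.9 FPKM in LD-FA, and Abca1, which loads cholesterol on to apolipoprotein A-I, had 22.4 and 18.8 FPKM in LD-PM2.5, against 13.9 and 14.5 FPKM in LD-FA. Both exporters stood higher in both LD-PM2.5 libraries. Abca1 had a log2 fold change of 0.48, and of 0.11 with the relation to length removed.

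Genes of fasting metabolism stood higher in part. PPAR alpha (gene Ppara) switches on fatty acid oxidation, and its list had 26 of 41 members positive, with a median of 0.09. At p under 0.05 were 5 upward (6.78% of all genes were) and 0 downward (4.18% were). Ppara had 34.9 and 44.7 FPKM in LD-PM2.5, against 10.6 and 19.1 FPKM in LD-FA (log2 fold change 1.39 ± 0.49). Angptl4, a PPAR target that blocks lipoprotein lipase, had 58.6 and 38.5 FPKM in LD-PM2.5, against 27.1 and 17.1 FPKM in LD-FA. LD-FA replicate 1 was lowest in Ppara and LD-FA replicate 2 in Angptl4. Acot3, a peroxisomal thioesterase, had 1.39 and 3.49 FPKM in LD-PM2.5, against 0.542 and 0.771 FPKM in LD-FA. Cpt1a, the entry gate of fatty acids into mitochondria, had 88.9 and 69.7 FPKM in LD-PM2.5, against 58.1 and 54.1 FPKM in LD-FA. Each of these had both LD-PM2.5 libraries above both LD-FA libraries.

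Of 26 tested genes of glucose handling 15 were positive and 2 reached p under 0.05 (11.0% of all genes did), with a median of 0.06. It became 0.31 when LD-PM2.5 replicate 1 was left out and -0.12 when replicate 2 was. Pck1, the gatekeeper of gluconeogenesis, had 992 and 1029 FPKM in LD-PM2.5, against 676 and 432 FPKM in LD-FA (log2 fold change 0.88 ± 0.23). Pfkfb3, which raises the glycolytic signal fructose 2,6-bisphosphate, had 5.26 and 3.36 FPKM in LD-PM2.5, against 1.07 and 1.49 FPKM in LD-FA. G6pc, the last enzyme of glucose release, went the other way, with 139.7 and 72.8 FPKM in LD-PM2.5, against 184 and 180.5 FPKM in LD-FA. Pck1 and G6pc usually move together in fasting, and here their groups lay on opposite sides. In the insulin list, 11 of 15 tested members were positive and Foxo1, the factor that insulin keeps out of the nucleus, reached p under 0.05, with 5.20 and 6.26 FPKM in LD-PM2.5, against 4.18 and 3.71 FPKM in LD-FA. Foxo1 stood at a log2 fold change of 0.49, and at 0.16 with the relation to length removed. In fatty acid and triglyceride synthesis, with a median of 0.04 over 29 members, Elovl6 and Fads2, an elongase and a desaturase, stood higher. Elovl6 had 19.2 and 27.2 FPKM in LD-PM2.5, against 9.57 and 13.2 FPKM in LD-FA. Fads2 had 167 and 154 FPKM in LD-PM2.5, against 105 and 129 FPKM in LD-FA.

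On the growth hormone axis, 9 of 11 tested members were positive, with a median of 0.20. Of these members 2 reached p under 0.05 upward (6.78% of all genes did). Bcl6, a repressor of STAT5 targets, had 18.02 and 17.1 FPKM in LD-PM2.5, against 10.1 and 3.23 FPKM in LD-FA. Socs2, the feedback inhibitor of growth hormone signalling, had 11.7 and 1.15 FPKM in LD-PM2.5, against 1.01 and 0.748 FPKM in LD-FA, so that LD-PM2.5 replicate 1 alone stood high. Igf1, the hormone that growth hormone draws from the liver, had 330.3 and 318 FPKM in LD-PM2.5 and 315 and 311 FPKM in LD-FA. Sex-biased liver genes depend on the pulse of this hormone, and 3 of their 7 tested members were positive. Major urinary proteins, which carry pheromones in male urine, had 1 of 9 positive and a median of -0.29, and 0 reached p under 0.05. Leaving out LD-FA replicate 1 gave a median of -0.01, and removing the relation to length one of -0.14. They are close copies of each other and the split of fragments among them is uncertain.

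Heme and iron genes gave few contrasts beyond Alas1, the rate-limiting enzyme of heme synthesis in liver. It had 160.0 and 191 FPKM in LD-PM2.5, against 42.5 and 49.9 FPKM in LD-FA (log2 fold change 1.93 ± 0.43, edgeR adjusted p = 0.416). Of 12 tested genes of heme synthesis and breakdown 5 were positive, 3 stood apart upward (24.6% of all genes did) and 3 downward (24.8% did). In each direction 1 reached p under 0.05 (6.78% of all genes did upward and 4.18% downward). Alad, the next step, had 83.3 and 96.05 FPKM in LD-PM2.5, against 116 and 119.6 FPKM in LD-FA. Uros, a later one, had 7.77 and 5.14 FPKM in LD-PM2.5, against 8.86 and 8.22 FPKM in LD-FA. In constant light Alas1 stood at -1.33. The difference between light regimes was 3.26 ± 0.61 (SE, unadjusted p = 0.000833, edgeR adjusted p = 0.843). Steap3, a ferrireductase, had 10.4 and 9.52 FPKM in LD-PM2.5, against 14.1 and 14.8 FPKM in LD-FA, and Slc40a1, the iron exporter ferroportin, had 42.8 and 54.1 FPKM in LD-PM2.5, against 32.3 and 33.2 FPKM in LD-FA. Globin transcripts, which come from red cells in the tissue, were lower. Hba-a1 had 4.81 and 5.92 FPKM in LD-PM2.5, against 23.6 and 12.7 FPKM in LD-FA. Of the 5 erythroid genes tested, 4 reached p under 0.05 downward (4.18% of all genes did). The list's median was -1.44, and -0.68 without LD-FA replicate 1.

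Position along the liver lobule was read from pericentral and periportal genes. Of 14 pericentral genes 3 were positive and 3 reached p under 0.05 downward (4.18% of all genes did), with a median of -0.23. Those 3 were Lgr5, the R-spondin receptor of the Wnt pathway, Rhbg, an ammonia channel, and Slc1a4, a neutral amino acid transporter. Lgr5 had 1.38 and 1.36 FPKM in LD-PM2.5, against 2.05 and 2.32 FPKM in LD-FA. Rhbg had 4.25 and 4.24 FPKM in LD-PM2.5, against 7.79 and 6.01 FPKM in LD-FA. Slc1a4 had 1.27 and 1.04 FPKM in LD-PM2.5, against 2.25 and 1.73 FPKM in LD-FA. The abundant pericentral genes Glul and Cyp2e1 were less far apart and pointed opposite ways on FPKM. Glul, glutamine synthetase, was lower, with 415 and 353 FPKM in LD-PM2.5 and 499 and 420.4 FPKM in LD-FA. Cyp2e1 was higher, with 4242 and 3902 FPKM in LD-PM2.5 and 3738 and 3160 FPKM in LD-FA. Of 16 periportal genes 7 were positive, with a median of -0.04. Amino acid breakdown had 14 of 43 members apart downward (24.8% of all genes were) and 0 apart upward (24.6% were). At p under 0.05 were 4 downward (4.18% of all genes were), and the median was -0.03. On FPKM, 10 stood apart downward and 4 upward, against 2121 downward and 2787 upward of the 11316 tested genes. Hal and Amdhd1 are enzymes of the histidine route. Hal had 63.7 and 49.7 FPKM in LD-PM2.5, against 94.3 and 87.7 FPKM in LD-FA. Amdhd1 had 70.05 and 40.6 FPKM in LD-PM2.5, against 94.2 and 82.3 FPKM in LD-FA. Bhmt, which returns a methyl group from betaine to homocysteine, had 971 and 636 FPKM in LD-PM2.5, against 1462 and 1549 FPKM in LD-FA (log2 fold change -0.94 ± 0.23, edgeR adjusted p = 0.416). In all 3, LD-PM2.5 replicate 2 was lowest.

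Among growth arrest genes 13 of 19 were positive, with a median of 0.20. Gadd45a, a stress sensor, had 3.82 and 8.02 FPKM in LD-PM2.5, against 1.12 and 2.12 FPKM in LD-FA. Zmat3, a p53 target, had 1.59 and 1.52 FPKM in LD-PM2.5, against 0.979 and 0.980 FPKM in LD-FA. Zmat3 stood at a log2 fold change of 0.58, and at 0.30 with the relation to length removed. Cdkn1a, the p21 inhibitor, was lower, with 3.83 and 2.61 FPKM in LD-PM2.5, against 4.86 and 6.27 FPKM in LD-FA. Of 12 cell cycle genes 3 were positive, with a median of -0.19. In plasma lipoprotein handling 7 of 22 were positive, with a median of -0.16. Apoa5, which speeds triglyceride clearance, had 402 and 726 FPKM in LD-PM2.5, against 285 and 354 FPKM in LD-FA, and Sort1, the sorting receptor sortilin, had 4.51 and 2.45 FPKM in LD-PM2.5, against 5.26 and 4.62 FPKM in LD-FA. Among 16 retinoid genes Dhrs3, which turns retinaldehyde back to retinol, had 73.2 and 76.3 FPKM in LD-PM2.5, against 102 and 105 FPKM in LD-FA. Of 26 autophagy and lysosome genes 15 were positive, with a median of 0.02. Bnip3, a receptor for mitochondrial autophagy, had 62.7 and 86.04 FPKM in LD-PM2.5, against 50.6 and 43.8 FPKM in LD-FA. Stellate and fibrosis genes had 5 of 16 positive, a median of -0.12 and 1 member at p under 0.05. Leaving out LD-FA replicate 1 turned this median to 0.24, and leaving out replicate 2 gave -0.42, and 0 members reached p under 0.05 with the relation to length removed.

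The series title names chromatin, and the chromatin lists carried a relation to transcript length. Of 36 tested genes of DNA and histone methylation and remodelling 28 were positive, 21 stood apart upward (24.6% of all genes did) and 3 downward (24.8% did), and 5 reached p under 0.05 upward (6.78% did) and 0 downward. Once the relation to length was removed, 2 reached it upward and 3 downward. The median of the list was 0.24, between 0.15 and 0.41 when 1 light/dark library was left out. Kdm6a, a demethylase of histone H3 lysine 27, had 3.24 and 2.25 FPKM in LD-PM2.5, against 1.62 and 1.71 FPKM in LD-FA. Kmt2c, a methyltransferase of enhancers, had 1.75 and 1.53 FPKM in LD-PM2.5, against 0.508 and 0.880 FPKM in LD-FA. Smarca2, an ATPase of the SWI/SNF complex, had 19.2 and 25.8 FPKM in LD-PM2.5, against 18.6 and 16.7 FPKM in LD-FA. Ehmt2, which methylates histone H3 lysine 9, was level, with 11.4 and 12.5 FPKM in LD-PM2.5 and 11.4 and 13.4 FPKM in LD-FA. Histone acetylation regulators had 16 of 30 positive and a median of 0.03. Hdac4 stood higher, at a log2 fold change of 0.56, and Hdac2 and Sirt5 lower, at -0.35 and -0.56. Hdac4 stood at 0.27 with the relation to length removed, and of these 3 only Hdac2 still reached p under 0.05.

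The genes of the methylation and remodelling list are long, with a median transcript of 6468 bases, against 2744 bases over the 11297 tested genes with a length. Over 5 bins of equal gene number, from short to long transcripts, the median log2 fold change was -0.16, -0.11, -0.03, 0.06 and 0.22. The share of positive values was 26.7% in the shortest bin and 78.8% in the longest. In the longest bin 18.2% of genes reached p under 0.05 upward, against 1.33% in the shortest. In constant light the same medians lay between -0.01 and 0.01. Across genes, which are not independent replicates, Spearman's rho of length and log2 fold change was 0.42 in LD and 0.03 in LL. Each library's deviation from the mean of the 4 shows that LD-FA replicate 1 carried the steepest relation, at 0.13 in the shortest and -0.19 in the longest bin, while LD-FA replicate 2 stayed between -0.02 and 0.01. Both LD-PM2.5 libraries tilted the other way. Without LD-FA replicate 1 the medians were -0.07 in the shortest and 0.14 in the longest bin.

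**Figure D3:**
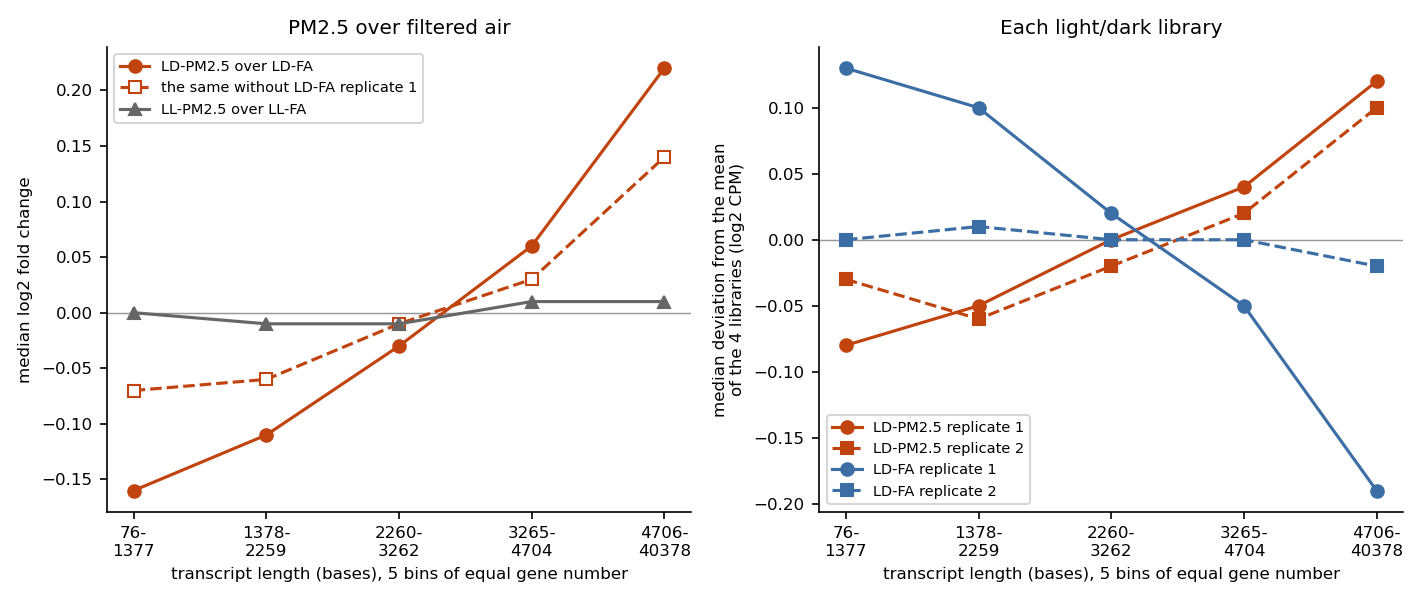
Left, median log2 fold change (vertical axis) of the tested genes in 5 bins of transcript length in bases (horizontal axis), for LD-PM2.5 over LD-FA with all libraries (filled circles), without LD-FA replicate 1 (open squares) and for LL-PM2.5 over LL-FA (triangles). Right, median deviation of each light/dark library from the mean of the 4, in log2 CPM (depth-scaled counts). The light/dark line climbs to 0.22 in the longest bin while the constant light line stays within 0.01 of 0, and LD-FA replicate 1 slopes most.

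Lists of short transcripts lay on the other side. Cytosolic ribosomal proteins had 0 of 38 positive and a median of -0.18, with a median transcript of 1014 bases. Proteasome subunits had 0 of 27 positive, 19 apart downward (24.8% of all genes were) and a median of -0.23, with a median transcript of 1541 bases. On FPKM, 11 of the 27 were apart downward, against 2121 of the 11316 tested genes. Nuclear-encoded oxidative phosphorylation had 3 of 40 positive and a median of -0.15, with a median transcript of 1186 bases. When 1 light/dark library was left out, these medians ranged from -0.31 to -0.06 for ribosomal proteins, -0.35 to -0.12 for the proteasome and -0.30 to -0.01 for oxidative phosphorylation. With the relation to length removed by a smooth curve, chosen after seeing the data, the medians were -0.05 for ribosomal proteins, -0.10 for the proteasome, -0.03 for oxidative phosphorylation and 0.07 for methylation and remodelling. The clock, STAT3, heat shock and cholesterol medians then stood at 1.23, 0.70, 0.47 and -0.70. The count of genes at p under 0.05 was 573 upward and 515 downward on that scale, and edgeR called 0. Psmb3, a proteasome core subunit, illustrates the size of these differences, with 53.1 and 51.6 FPKM in LD-PM2.5, against 70.8 and 65 FPKM in LD-FA. Psmb3 stood at a log2 fold change of -0.37, and at -0.22 with the relation to length removed. What sets the relation to length was not tested.

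Structural and nuclear RNAs, picked after their values were seen, also stood higher in LD-PM2.5. Rn7sk, the 7SK RNA that restrains transcription elongation, had 6.52 and 23.6 FPKM in LD-PM2.5, against 2.31 and 2.74 FPKM in LD-FA. Rpph1, the RNA of RNase P, had 1.08 and 14.3 FPKM in LD-PM2.5, against 0.692 and 0.365 FPKM in LD-FA. Malat1, a long nuclear RNA, had 8.01 and 16.02 FPKM in LD-PM2.5, against 4.22 and 5.47 FPKM in LD-FA. LD-PM2.5 replicate 2 was highest in all 3. Mir6236 and Lars2, loci that can collect ribosomal RNA fragments, stood higher too. Mir6236 had 3950 and 6145 FPKM in LD-PM2.5, against 1546 and 1928 FPKM in LD-FA, and Lars2 had 364 and 562 FPKM in LD-PM2.5, against 124 and 179.6 FPKM in LD-FA. LD-FA was the low group of the series for both, since the LL libraries ranged from 3018 to 4424 FPKM for Mir6236 and from 259.5 to 430.1 FPKM for Lars2. How much RNA of these kinds each library took up was not tested as a source of other differences.

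Markers of other tissues and cell types were summed in every library. The 13 pancreas acinar markers summed to 152 and 28.6 FPKM in LD-PM2.5, against 4381 and 34.9 FPKM in LD-FA. The 9 skeletal muscle markers summed to 0.537 and 1.18 FPKM in LD-PM2.5, against 295.4 and 31.9 FPKM in LD-FA. Among the light/dark libraries LD-FA replicate 1 was highest in both, and muscle RNA was also present in LD-FA replicate 2. In constant light, muscle markers summed to 564.9 and 0.789 FPKM in LL-FA and to 1.395 and 0.797 FPKM in LL-PM2.5. Pancreas markers summed there to 18.1 and 27.4 FPKM in LL-FA and to 19.3 and 427 FPKM in LL-PM2.5. Muscle genes gave the most negative log2 fold changes of all tested genes. Acta1, skeletal actin, had 0.0402 and 0.0596 FPKM in LD-PM2.5, against 88.4 and 10.2 FPKM in LD-FA. Tnnt3, a troponin, was listed at 0 in both LD-PM2.5 libraries, against 45.8 and 4.85 FPKM in LD-FA. Cryab, in the heat shock list, and Des, in the fibrosis list, are also muscle genes. Among the light/dark libraries both were highest in LD-FA replicate 1. The part of these tissues in other genes was not tested.

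Of the liver's own cells, hepatocyte markers summed to 22480 and 21650 FPKM in LD-PM2.5, against 26420 and 20980 FPKM in LD-FA. Kupffer cell and macrophage markers summed to 401.4 and 348 FPKM in LD-PM2.5 and 448 and 398 FPKM in LD-FA, with all 13 present. Of these 13, 2 were positive, and the median log2 fold change was -0.18. Apart downward stood 8 (24.8% of all genes did) and apart upward 1 (24.6% did). Only Cd163, the scavenger receptor for hemoglobin, reached p under 0.05, and it stood higher, against most of the list. It had 4.68 and 5.91 FPKM in LD-PM2.5, against 3.44 and 2.99 FPKM in LD-FA. The summed markers of sinusoidal endothelium were 112 and 116 FPKM in LD-PM2.5 and 118 and 110.5 FPKM in LD-FA, and those of stellate cells 135 and 111 FPKM in LD-PM2.5 and 146 and 94.6 FPKM in LD-FA. Both sums overlapped between groups. Of single markers 2 of 9 endothelial and 1 of 8 stellate ones stood apart upward (24.6% of all genes did). The stellate one was at p under 0.05 (6.78% of all genes were, upward). Markers of B and plasma cells summed to 46.3 and 33.7 FPKM in LD-PM2.5, against 91.2 and 60.6 FPKM in LD-FA. Ighm, the heavy chain of immunoglobulin M, had 11.6 and 8.58 FPKM in LD-PM2.5, against 21.6 and 17.3 FPKM in LD-FA. Cholangiocyte markers summed to 35.3 and 25.8 FPKM in LD-PM2.5, against 57.3 and 32.5 FPKM in LD-FA.

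**Figure D4:**
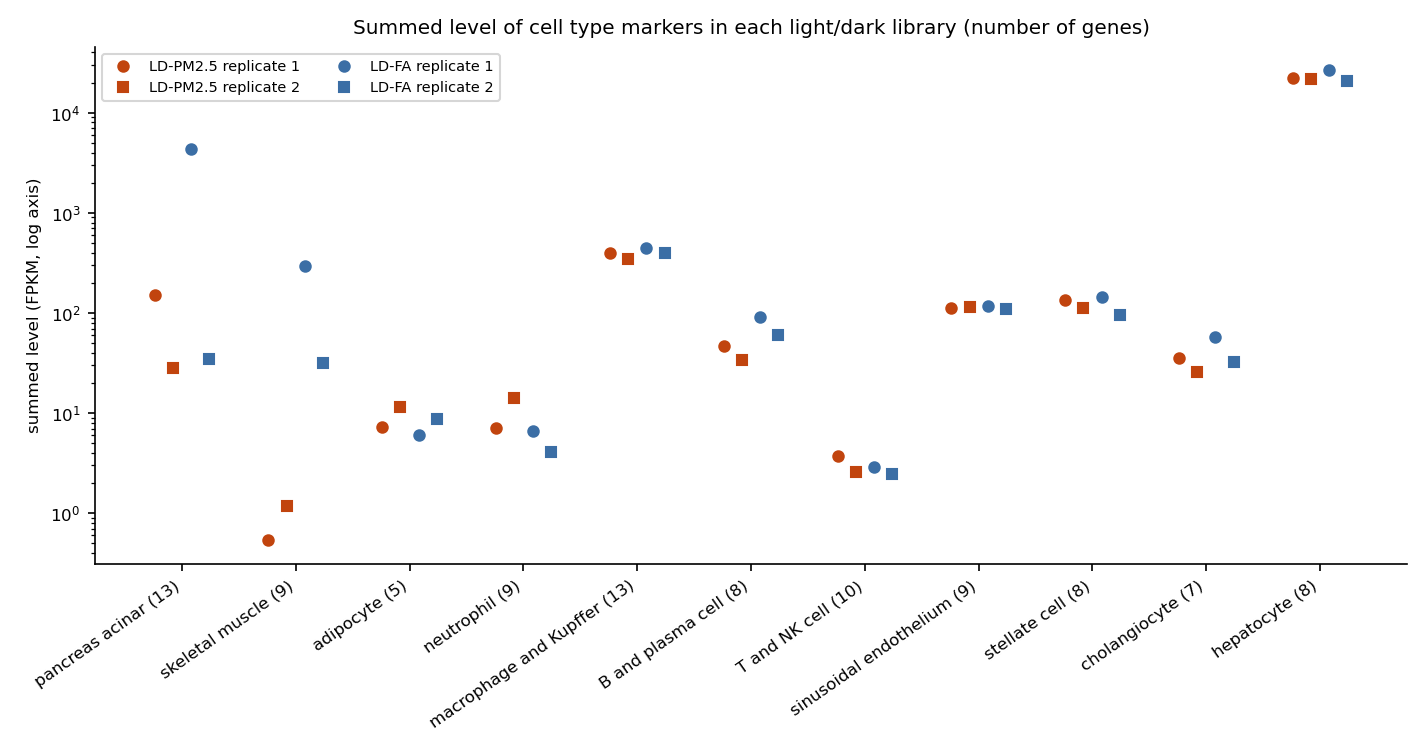
Summed level in FPKM (vertical log axis) of the markers of 11 tissues or cell types (horizontal axis, number of genes in brackets), for LD-PM2.5 replicates 1 and 2 (left pair) and LD-FA replicates 1 and 2 (right pair). Pancreas markers reach 4381 FPKM and muscle markers 295.4 FPKM in LD-FA replicate 1, while hepatocyte, Kupffer cell, endothelial and stellate sums are close in all 4 libraries.

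The same PM2.5 exposure in constant light was measured on 4 other libraries. The test of the difference between light regimes called 0 genes (edgeR, smallest adjusted p 0.843), and 552 genes (4.88%) reached an unadjusted p under 0.05. Across all tested genes, which are not independent replicates, Pearson's r between the effects was 0.34 and Spearman's rho 0.15. Skeletal muscle markers, high in LL-FA replicate 1 as in LD-FA, had medians of -9.08 in LD and -9.18 in LL. Pancreas markers had medians of -4.93 in LD and 8.56 in LL. The part of such genes in r, rho and the counts that follow was not tested. Of the 1240 genes at p under 0.05 in LD, 814 had the same sign in LL (65.65%), against 54.31% of all tested genes. On FPKM, both PM2.5 libraries lay above both filtered air libraries in both regimes in 327 genes (2.89%) and below both in 380 (3.36%). Mtss1, Dbp, Cyp8b1, Fam89a, Pawr and Arntl pointed the same way in both. Pawr, an inducer of apoptosis, had 7.25 and 6.83 FPKM in LD-PM2.5, against 4.46 and 4.11 FPKM in LD-FA. Its log2 fold change was 0.73 in the light/dark cycle and 0.55 in constant light. Clock repressors had a median of 1.27 in LD and 0.82 in LL. The STAT3 list stood at 0.72 in LD and -0.04 in LL, and the heat shock list at 0.43 in LD and -0.04 in LL. Cholesterol synthesis stood at -0.73 in LD and -0.13 in LL, and the erythroid list at -1.44 in LD and 1.06 in LL. Fosl2 was 0.91 in LD and -0.53 in LL, a difference of 1.44 ± 0.28 (SE, unadjusted p = 0.00104, edgeR adjusted p = 0.843). Insig1 was -0.98 in LD and 0.61 in LL. None of these differences between light regimes passed the adjustment.

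**Figure D5:**
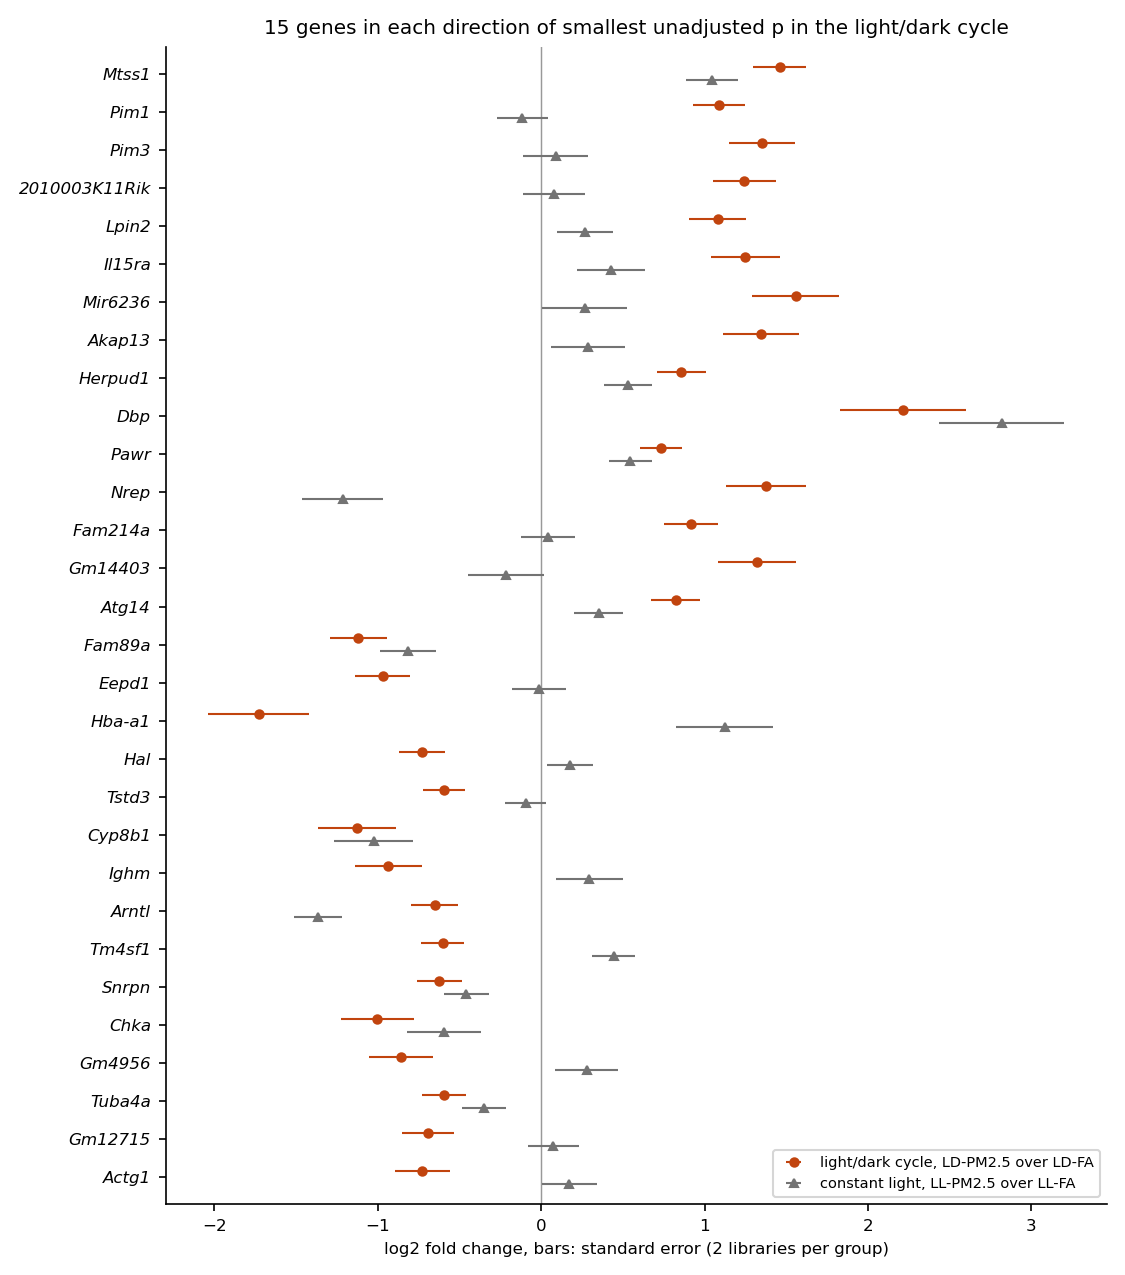
Log2 fold change with PM2.5 (horizontal axis, bars are SE, 2 libraries per group) of the 15 genes of smallest unadjusted p in each direction in the light/dark cycle (rows), for LD-PM2.5 over LD-FA (circles, upper in each row) and LL-PM2.5 over LL-FA (triangles, lower). Mtss1, Dbp, Cyp8b1 and Arntl lie on the same side in both regimes, and Pim1, Fam214a and Eepd1 lie near 0 in constant light.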

How the data were processed

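Liver RNA of all 8 libraries was measured by RNA sequencing. Per the submitters' processing notes, STAR, Cufflinks and Cuffdiff were used with the mouse build mm10, without versions. Per the file headers, the authors deposited Cuffdiff estimated counts (fragments per gene and library, expected counts) and FPKM for 48432 genes. They were rounded: 97.4% of nonzero values were whole to a tolerance of 0.01. Left out were 47 genes with a status other than OK in any library, which held 1.07% of fragments. A symbol was found for 48051 gene IDs and not for 381, and fragments of a repeated symbol were summed.

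Fragments were tested with edgeR 4.0.16 (R 4.3.3, TMM scaling, prior count 0.125) in a model of 4 group means, two-sided. DESeq2 1.42.0 and limma 3.58.1 gave alternatives. The test was tested on simulated counts. The median SE of a log2 fold change was 0.19. Named were, per direction, the 15 genes of smallest p and the 10 of largest change among those whose groups stood apart and reached 5 FPKM, the 4 members of smallest p and the 2 of highest FPKM per list, and the clock lists. Wee1, Tubb2a, Il6ra, Stat3, Nfkbia, Nr4a1, Hspb1, Hspa1a, Hspa1b, Xbp1, Atf4, Nqo1, Hmgcs1, Msmo1, Cpt1a, G6pc, Glul and the structural RNAs were named after their values were seen. Members and lists were chosen with earlier results of these data known. Promoters came from RefSeq (GRCm38.p6). Some list members are not reported here by name.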

Additional observations from a re-analysis of the deposited data

How the results depend on the processing

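With 2 libraries per group, leaving out 1 library leaves a group with a lone library, assumed to vary like the others. edgeR called 0 genes in the light/dark comparison under every setting except 2: 647 with no FPKM filter and between 0 and 36 when a library was left out (36 without LD-PM2.5 replicate 1). DESeq2 called 150. Against 1240 genes at an unadjusted p under 0.05, there were 2374 with no filter, 701 at 5 FPKM, 720 and 739 with limma on log2(FPKM + 1) and log2(FPKM + 0.1), 775 with quantile normalization, and 395 to 1573 with a library left out. Against 5591 genes with non-overlapping groups, there were 8458 with no filter, 3249 at 5 FPKM and 5550 to 9016 with a library left out, where a group of 1 overlaps less by construction. The difference between light regimes called 0 genes, and 239 with no filter. Against 552 at an unadjusted p under 0.05 there were 1348 with no filter, 336 at 5 FPKM and 250 to 1258 with a library left out. The cause of these shifts was not tested, beyond the fewer or more genes that each filter tests.

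The replicate number was also fitted as a replicate block: 0 genes were called and 1085 reached an unadjusted p under 0.05. Replicate 1 deviations correlated at 0.27 between LD-PM2.5 and LD-FA, but with 2 numbers per group this gives only a hint, and the labels do not say that a number pairs samples.

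Of 132 genes given with values, 9 changed sign in a setting. Nr1d1 was -0.29 and -0.23 with limma at pseudocounts 0.1 and 1, -0.2 with quantile normalization and -1.93 to 1.35 with a library left out. With the relation to length removed, Hp was 0.076, Igf1 -0.057, Nfkbia 0.041 and Stat3 -0.0043. At 5 FPKM Ehmt2 was 0.024. With a library left out log2 fold changes lay between -0.81 and 1.71 for Cry1, -0.24 and 0.51 for Nqo1, -0.42 and 0.22 for Hpx, -0.31 and 0.23 for Hp, -0.23 and 0.12 for Nfkbia, and -0.066 and 0.049 for Ehmt2. Of the list medians under other settings 959 stayed within 1 SD between replicates and 61 did not.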
